A study of Mus musculus with 36 samples.

Results

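Inflammatory caspases and interleukin-1 genes were followed in tumors of the mouse mammary cancer lines 67NR and 66cl4. The 8 genes were *Casp1*, *Casp4*, *Pycard*, *Il1a*, *Il1b*, *Il1rn*, *Il18* and *Ifi204*. They make up 8 of the 12394 genes read on the arrays, through 11 of 22690 probe sets. They were chosen by a list drawn up with their measured BPTF KD minus control differences in BALB/c mice known, in which *Casp1* was higher in 66cl4. Differences between BPTF KD and control tumors of BALB/c mice are therefore given as a description without a test. So are the *Casp1* contrasts that use 66cl4 tumors of BALB/c mice.

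Caspase-1 is a protease that cuts the precursors of interleukin-1 beta (*Il1b*) and interleukin-18 (*Il18*) into their active forms and opens the membrane pore of pyroptosis, a lytic cell death. Sensor proteins bring it together through the adaptor ASC, the product of *Pycard*, in a complex called the inflammasome. Caspase-4, known as caspase-11 in mice, responds to bacterial lipopolysaccharide inside the cell. Interleukin-1 alpha (*Il1a*) and interleukin-1 beta act through the same receptor, which the antagonist encoded by *Il1rn* blocks, while interleukin-18 drives interferon gamma production by NK and T cells. *Ifi204* encodes an interferon-inducible protein of the p200 family, whose members bind DNA. The arrays measured RNA, so they do not show whether any of these proteins was cut or released.

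Total RNA of 36 tumors was measured, 1 array per tumor, with 6 BPTF KD and 3 control tumors for each cell line and host. BPTF, the large subunit of the NURF chromatin remodeling complex, was knocked down (KD) with retroviral shRNA before injection, and control cells carried a control shRNA. The study asked how tumors with less BPTF meet the immune system. Hosts were NOD/SCID/Ifrg2r -/- (NSG) mice or BALB/c mice, the strain the lines came from, and cells went into a mammary fat pad. 67NR tumors grew from 100000 cells for 21 days and 66cl4 tumors from 10000 cells for 28 days, and the mice were 6 to 8 week old females. The 8 groups were thus 67NR BPTF KD and 67NR control tumors in NSG mice, the same pair in BALB/c mice, and the same 4 groups of 66cl4. NSG mice lack T, B and NK cells but keep macrophages and neutrophils. The BPTF KD tumors came from cells with 1 of 2 hairpins. The study's own column headings give 3 BPTF KD tumors per hairpin, but the labels do not tie tumors to hairpins. Each p-value therefore measures the spread between tumors and not that between hairpins.

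Levels are log2 values, so a difference of 1 is a 2-fold change. *Bptf* was lower in 6 of 6 66cl4 BPTF KD tumors of BALB/c mice than in every control (log2 -1.09 ± 0.20 SE), and in 5 of 6 in NSG mice (-0.33 ± 0.12). In 67NR it lay below every control in 3 of 6 tumors in NSG mice (-0.27 ± 0.22) and in 1 of 6 in BALB/c mice, where 2 of 6 lay above (-0.06 ± 0.45). Directions in 67NR therefore follow the label of the tumors labelled BPTF KD, not a measured loss of *Bptf*. NK cell markers were at a mean of 4.54 to 5.20 in NSG tumors and 6.32 to 9.59 in BALB/c tumors (10 of 11 genes measured), and *Ncr1* ran from 3.97 to 5.08 in NSG tumors and from 6.29 to 10.36 in BALB/c tumors. The mean of skeletal muscle genes reached 11.72 in replicate 3 of the tumors labelled BPTF KD of 67NR in BALB/c mice, and spanned 6.42 to 11.16 in 66cl4 tumors of BALB/c mice. In 66cl4 tumors of NSG mice it was 4.97 to 6.98 with BPTF KD and 4.90 to 6.52 in controls. The 3′ minus 5′ difference of the *Gapdh* control probe sets, a sign of RNA quality, was -0.12 to 0.17 in NSG tumors and 0.14 to 0.52 in BALB/c tumors. For the actin control, group means were 0.94 to 1.28 in NSG and 1.12 to 1.38 in BALB/c tumors. Its highest value, 2.11, was in 67NR tumors labelled BPTF KD of BALB/c mice.

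*Casp1* (chr9:5298517-5307281) and *Casp4* (chr9:5308849-5336791) lie next to each other on GRCm38, 1567 bases apart with no annotated gene between them. *Il1b* (chr2:129364569-129371164) and *Il1a* (chr2:129299609-129310186) are 54382 bases apart, with no protein-coding gene annotated between them. *Il1rn* lies elsewhere on chromosome 2 (chr2:24336860-24351491), *Il18* on chromosome 9 (chr9:50554700-50581841), *Pycard* on chromosome 7 (chr7:127991373-127993867) and *Ifi204* on chromosome 1 (chr1:173747293-173767069). The 250 bases before a RefSeq transcript start of each of the 4 clustered genes are shown because the data below set the neighbors side by side. The *Il1a* and *Il1b* starts used lie inside the gene spans given above, so that 214 bases of the *Il1a* window and 25 bases of the *Il1b* window fall within those spans. They are RefSeq sequences of GRCm38.p6, read 5′ to 3′ in the direction of the gene, at chr9:5298267-5298516 (plus strand), chr9:5308599-5308848 (plus strand), chr2:129309973-129310222 (minus strand) and chr2:129371140-129371389 (minus strand). Capitals mark matches to the motifs named next.
Casp1: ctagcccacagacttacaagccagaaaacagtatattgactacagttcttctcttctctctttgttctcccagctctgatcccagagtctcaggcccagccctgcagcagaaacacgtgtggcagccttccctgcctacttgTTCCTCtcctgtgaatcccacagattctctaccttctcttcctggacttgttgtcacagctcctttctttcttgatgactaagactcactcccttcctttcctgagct
Casp4: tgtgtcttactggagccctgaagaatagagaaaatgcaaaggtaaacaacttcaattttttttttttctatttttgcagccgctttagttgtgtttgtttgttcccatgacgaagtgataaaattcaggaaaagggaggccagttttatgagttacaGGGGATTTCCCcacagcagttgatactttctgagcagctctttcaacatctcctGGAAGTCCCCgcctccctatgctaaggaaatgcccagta
Il1a: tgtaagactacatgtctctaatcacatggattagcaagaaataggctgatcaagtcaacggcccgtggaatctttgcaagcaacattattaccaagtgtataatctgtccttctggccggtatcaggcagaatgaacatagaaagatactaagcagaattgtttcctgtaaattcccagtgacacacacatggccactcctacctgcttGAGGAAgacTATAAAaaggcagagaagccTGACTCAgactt
Il1b: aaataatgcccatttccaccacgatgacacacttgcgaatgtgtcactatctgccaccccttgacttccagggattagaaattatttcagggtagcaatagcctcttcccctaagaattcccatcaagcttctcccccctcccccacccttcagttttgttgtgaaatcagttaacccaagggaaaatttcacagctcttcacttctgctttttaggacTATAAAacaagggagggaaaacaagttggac

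The motifs searched, on both strands, were GAS (TTCNNNGAA) and ISRE (by its consensus), the elements of interferon responses, NF-kB, AP-1 (TGANTCA), C/EBP (TTGCNNAA), PU.1 (GAGGAA) and the TATA box (TATAAA). *Casp4* held NF-kB matches at -93 to -83, where 3 matches on both strands overlap, and at -39 to -30, counted back from the start. An NF-kB match occurred in 7.25% of all 32851 windows of this length. *Casp1* held a single PU.1 match (-108 to -103, found in 23.3% of windows) and no NF-kB match. *Il1a* held a TATA box at -32 to -27, an AP-1 match at -12 to -6 and a PU.1 match at -41 to -36, and *Il1b* a TATA box at -31 to -26. A TATA match was found in 12.4% and an AP-1 match in 6.75% of windows. No GAS (7.02% of windows) or ISRE match (2.98%) lay in these 250 bases of the 7 genes with a RefSeq window. A match is a description of letters and not a measured binding site.

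**Figure D1:**
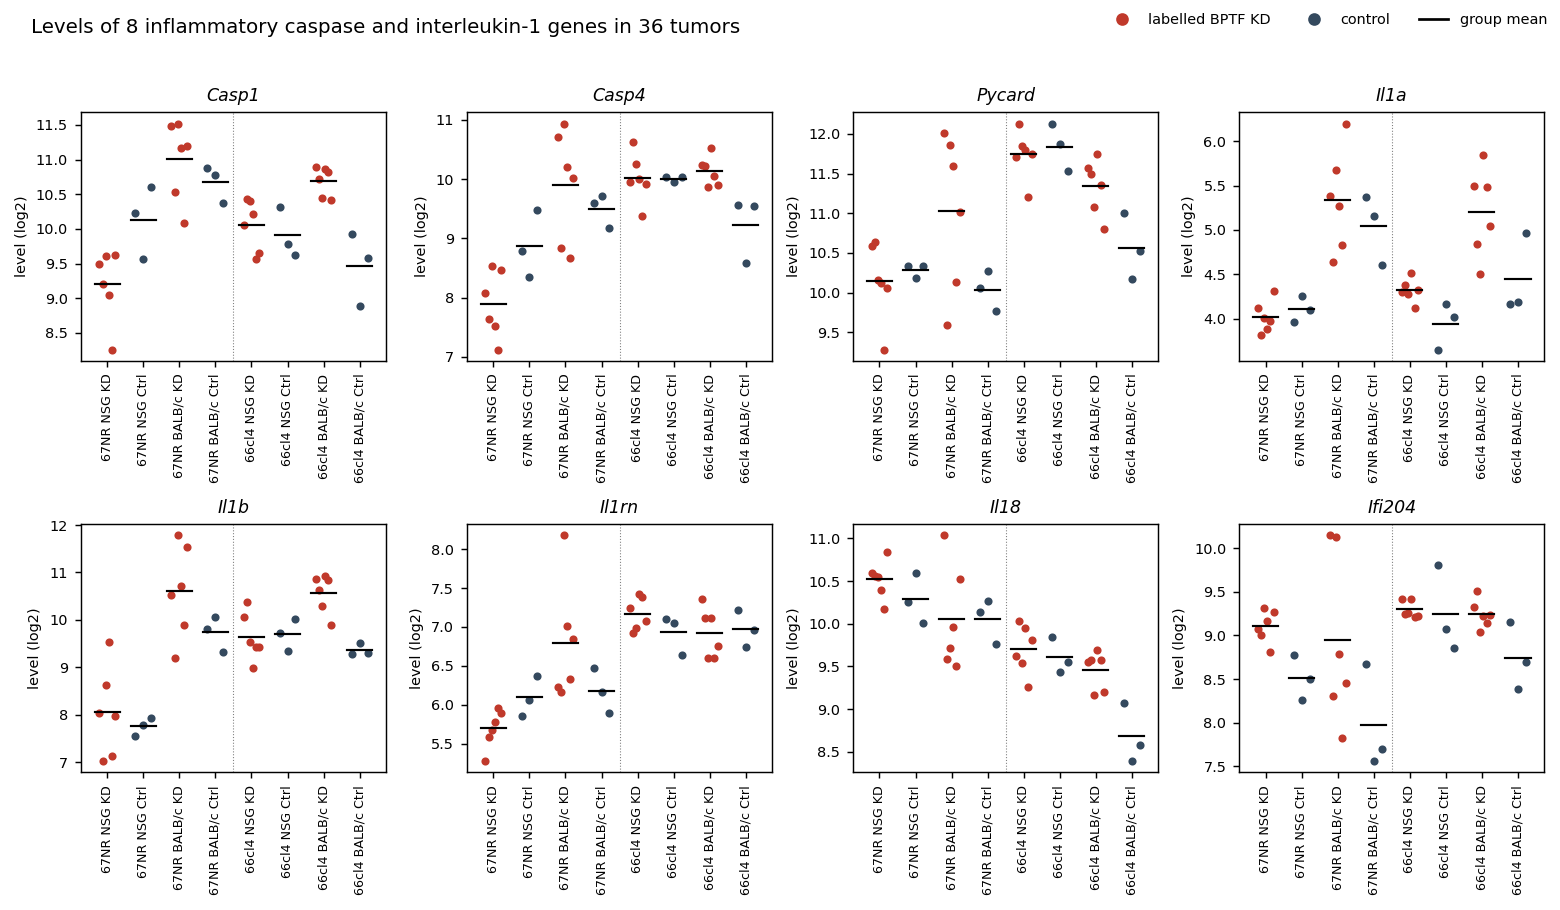
Level (log2) of each gene in each of 36 tumors, from the probe set read for it. Points are tumors, red for those labelled BPTF KD (6 per group) and blue for controls (3 per group), and bars are group means. *Il1b* was lowest in 67NR tumors of NSG mice (group means 8.05 and 7.75), *Il18* was higher in the 67NR groups, and the 6 tumors labelled BPTF KD of 67NR in BALB/c mice were widely spread for *Pycard* (9.59 to 12.01).

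Among the contrasts given with a test, those of host and cell line held the calls for these genes. After adjustment over all genes by limma, 5 of 8 differed between NSG and BALB/c mice in 67NR tumors labelled BPTF KD (15.8% of all genes did), 2 of 8 in 67NR controls (7.58%), and, with *Casp1* left out where 66cl4 tumors of BALB/c mice enter, 2 of 7 in 66cl4 BPTF KD tumors (11.1%) and 1 of 7 in 66cl4 controls (2.53%). Between 67NR and 66cl4, 7 of 8 differed in BPTF KD tumors of NSG mice (42.5% of all genes), 5 of 8 in controls of NSG mice (36.2%) and, again without *Casp1*, 0 of 7 in BPTF KD tumors of BALB/c mice (14%) and 2 of 7 in controls of BALB/c mice (26.1%). Of the BPTF KD comparisons with controls, 67NR in NSG mice called 0 of 8 (1.14% of all genes) and 66cl4 in NSG mice 0 of 8 (0%). At an unadjusted p under 0.05 these counts of 0 were 1 gene, *Il18*, in the cell line contrast of BPTF KD tumors in BALB/c mice (28.6% of all genes), 4 of 8 in 67NR (14.1%) and 1 of 8 in 66cl4 (7.68%). The methods' t-test, which the study names for comparing groups in general, also called 0 in each after adjustment. In BALB/c mice, 67NR called 0 of 8 (0%) and 66cl4 1 of 8 (0.186%), counts from which nothing is read. All 8 genes were listed with BALB/c differences known, so host contrasts and line contrasts in BALB/c mice are not free of that choice. Their counts and adjusted p-values are to be read with that limit, for *Casp1* most of all. Contrasts within NSG mice use none of those tumors.

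The 2 caspases were both higher in BPTF KD than in control tumors of 66cl4 in BALB/c mice. In 66cl4 tumors of BALB/c mice, *Casp1* was at 10.42, 10.77 and 10.89 (lowest, median and highest) in BPTF KD tumors, against 8.89, 9.58 and 9.93 in the 3 controls. All 6 BPTF KD tumors lay above every control, a 2.34-fold difference in means (log2 1.23 ± 0.20 SE). *Casp4* was at 9.86, 10.14 and 10.53 in the same BPTF KD tumors, against 8.58, 9.54 and 9.56 in controls (0.91 ± 0.22), again with 6 of 6 above. With *Il1b* and *Il18*, they were the 4 of 8 genes whose groups did not overlap, all of them higher in BPTF KD tumors (8.67% of all genes did not overlap, and 3.78% were higher without overlap). The genes were listed with these BALB/c differences known, so nothing is read from that count against the shares. In 67NR tumors of BALB/c mice 0 of 8 genes were without overlap (5.96% of all genes), and in 66cl4 tumors of NSG mice 0 of 8 (4.37%).

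The caspases did not pass the test with BPTF KD in NSG mice. In 67NR tumors, *Casp1* was at 8.26, 9.35 and 9.62 in tumors labelled BPTF KD, against 9.56, 10.23 and 10.60 in controls (-0.92 ± 0.31, adjusted p = 0.193 by limma). *Casp4* stood at 7.12, 7.86 and 8.54 in tumors labelled BPTF KD, against 8.35, 8.78 and 9.48 in controls (-0.98 ± 0.33, adjusted p = 0.202). For each caspase 4 of 6 tumors lay below every control and 0 of 6 above, and neither passed the threshold. In 66cl4 tumors of NSG mice, the difference was 0.14 ± 0.22 for *Casp1* and 0.01 ± 0.21 for *Casp4*, with adjusted p of 0.939 and 0.997. In 67NR tumors of BALB/c mice it was 0.32 ± 0.32 for *Casp1* and 0.40 ± 0.51 for *Casp4*, where the tumors labelled BPTF KD spanned the controls (10.09 to 11.52 against 10.38 to 10.88 for *Casp1*).

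The BPTF KD effect on *Casp1* in NSG mice was lower in 67NR than in 66cl4 by 1.06 on the log2 scale, which did not pass the test of the difference (-1.06 ± 0.41, adjusted p = 0.323 by limma). That test called 0 of the 8 genes (0.96% of all genes), and 5 of 8 at an unadjusted p under 0.05 (10.1% of all genes), with *Il1rn* at the lowest adjusted p (-0.64 ± 0.23, adjusted p = 0.255). As a description, the effect in NSG minus that in BALB/c mice was -1.09 ± 0.32 for *Casp1* and -0.90 ± 0.33 for *Casp4* in 66cl4, and -1.25 ± 0.48 and -1.38 ± 0.65 in 67NR.

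**Figure D2:**
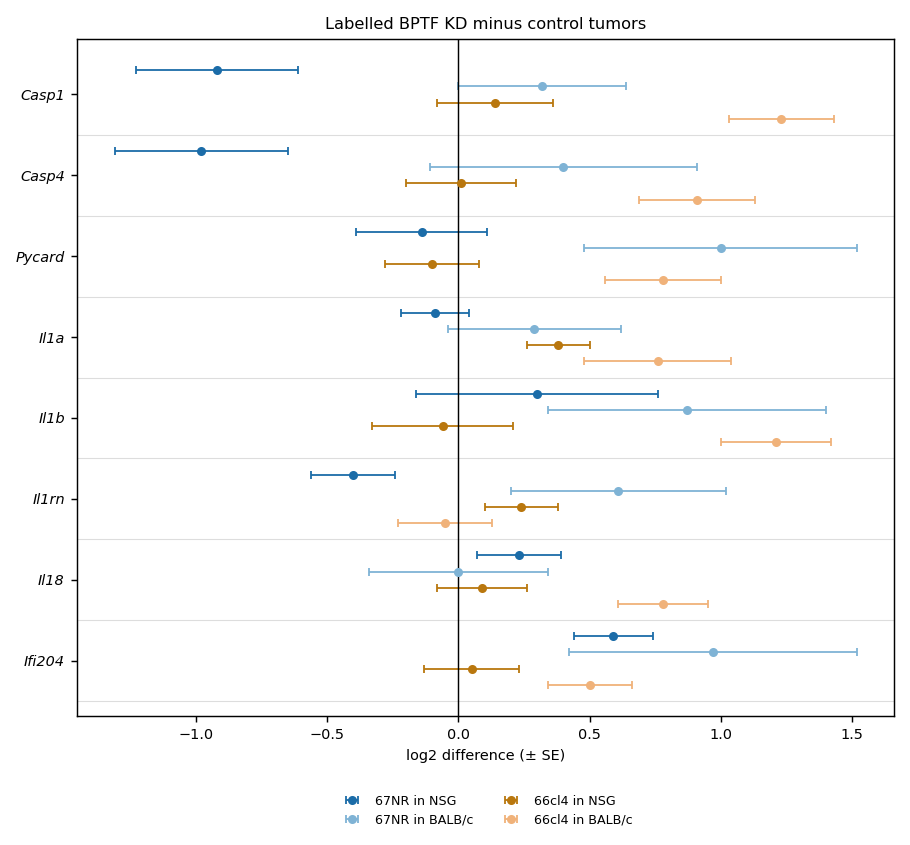
Difference of tumors labelled BPTF KD minus controls (log2, point ± SE from limma, 6 against 3 tumors) for each gene in 4 settings. In 66cl4 tumors of BALB/c mice 7 of 8 genes lay above 0, up to 1.23 for *Casp1*, and in 66cl4 tumors of NSG mice they lay between -0.10 and 0.38.

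The caspases were lower in NSG than in BALB/c mice in 67NR tumors labelled BPTF KD. *Casp1* was at 8.26, 9.35 and 9.62 in NSG mice, against 10.09, 11.18 and 11.52 in BALB/c mice, and the groups did not overlap. This was a 3.47-fold lower level in NSG mice (-1.80 ± 0.29, adjusted p = 0.00148 by limma). *Casp4* was at 7.12, 7.86 and 8.54 in NSG mice, against 8.67, 10.11 and 10.94 in BALB/c mice, 4.01-fold lower (-2.0 ± 0.41, adjusted p = 0.00573). In 67NR controls the same contrast gave -0.55 ± 0.25 for *Casp1* and -0.63 ± 0.27 for *Casp4*, with adjusted p of 0.204 and 0.182, and *Casp4* passed without replicate 3 of the NSG controls (-0.93, adjusted p = 0.0405). In 66cl4, *Casp4* differed by -0.12 ± 0.17 in BPTF KD tumors and by 0.78 ± 0.26 in controls, where 3 of 3 NSG tumors lay above every BALB/c tumor (adjusted p = 0.732 and 0.1), and *Casp1* by -0.64 ± 0.16 and 0.45 ± 0.29. NSG and BALB/c mice differ in strain and in immune cells, which cannot be told apart here, and in bulk tumor RNA fewer cells of a type cannot be told apart from less RNA per cell. The *Gapdh* 3′ minus 5′ difference given above also followed the host, while that of actin overlapped between hosts. In 66cl4 tumors the skeletal muscle mean given above was higher in BALB/c than in NSG mice. The part of RNA quality and of muscle in these contrasts was not tested.

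Between the lines, *Casp4* was lower in 67NR than in 66cl4 in NSG mice, and *Casp1* less so. In NSG BPTF KD tumors *Casp4* was 4.37-fold lower in 67NR (-2.13 ± 0.25, adjusted p = 1.14e-05 by limma), with 6 of 6 tumors below every 66cl4 tumor. In NSG controls it was at 8.35, 8.78 and 9.48 in 67NR, against 9.95, 10.04 and 10.04 in 66cl4 (-1.14 ± 0.26, adjusted p = 0.0111, and 0.0794 by the methods' t-test). *Casp1* was lower in 67NR in NSG BPTF KD tumors (-0.85 ± 0.23, adjusted p = 0.00855), and its NSG controls differed by 0.22 ± 0.28 (adjusted p = 0.61). In BALB/c mice the order turned for *Casp1*, at 10.38, 10.78 and 10.88 in 67NR controls, against 8.89, 9.58 and 9.93 in 66cl4 controls, while *Casp4* differed by 0.27 ± 0.27 in controls (adjusted p = 0.542) and by -0.24 ± 0.36 in BPTF KD tumors (adjusted p = 0.724). Cell number and day of harvest differ with the line and cannot be told apart from it. In BALB/c controls the skeletal muscle mean was 5.60 to 5.77 in 67NR and 8.60 to 10.96 in 66cl4. In BALB/c BPTF KD tumors it was 5.42 to 11.72 in 67NR and 6.42 to 11.16 in 66cl4. The part of muscle in the line contrasts of the 8 genes in BALB/c mice was not tested.

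Across tumors the caspases followed each other. Pearson's r of *Casp1* and *Casp4* was 0.97 in 18 67NR tumors and 0.80 in 18 66cl4 tumors (Spearman's rho 0.99 and 0.73), and 0.90 over 36 tumors once each group mean was subtracted. The pooled r was 0.78, and in the plot of the pair the points of 66cl4 lie above those of 67NR over much of the range. These points share arrays and normalization, and the values are descriptions. The genes most like *Casp4* over 36 tumors were *Gstt2*, *Cd200r1* and *Cd47* (r = 0.93 each), and those most like *Casp1* were *Crem*, *Dennd2d* and *Glrx* (r = 0.87, 0.86 and 0.86).

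*Pycard*, the adaptor, was lower in 67NR than in 66cl4 tumors of NSG mice. In NSG BPTF KD tumors it was at 9.28, 10.14 and 10.64 in 67NR, against 11.21, 11.78 and 12.13 in 66cl4, 3.03-fold lower (-1.60 ± 0.21, adjusted p = 3.12e-05 by limma). In NSG controls it was at 10.18, 10.33 and 10.33 in 67NR, against 11.53, 11.87 and 12.12 in 66cl4 (-1.56 ± 0.16, adjusted p = 4.19e-04). The groups did not overlap in either contrast. In BALB/c mice the difference was -0.31 ± 0.39 in BPTF KD tumors and -0.53 ± 0.22 in controls (adjusted p = 0.659 and 0.12), and the second passed without replicate 2 of the 66cl4 controls (-0.73, adjusted p = 0.031).

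By host, *Pycard* did not move one way. It was 2.42-fold higher in NSG than in BALB/c mice in 66cl4 controls, at 11.53, 11.87 and 12.12 against 10.17, 10.52 and 11 (1.28 ± 0.24, adjusted p = 0.0465 by limma). That call was lost when any of 5 of the 6 tumors was left out (adjusted p = 0.0871 to 0.139), all but replicate 1 of the BALB/c controls, in the fit of all 36 tumors (0.0824) and by the methods' t-test (0.187). The contrast gave 0.40 ± 0.17 in 66cl4 BPTF KD tumors (adjusted p = 0.145, and 0.0321 without replicate 5 of the NSG tumors), 0.25 ± 0.14 in 67NR controls and -0.89 ± 0.41 in 67NR tumors labelled BPTF KD (adjusted p = 0.165, but 0.0357 without replicate 2 of the BALB/c tumors and 0.0187 in the fit of all 36 tumors). Between BPTF KD and control tumors of BALB/c mice, *Pycard* differed by 0.78 ± 0.22 in 66cl4, with 5 of 6 BPTF KD tumors above every control, and by 1.00 ± 0.52 in 67NR, with 4 of 6 above and 1 of 6 below. In NSG mice it differed by -0.14 ± 0.25 in 67NR and -0.10 ± 0.18 in 66cl4 (adjusted p = 0.854 and 0.951). The nearest patterns were those of *Lmo2* and *Clec5a* (r = 0.94 each) and *Bin3* (r = 0.93), and they stayed near with group means subtracted (r = 0.89, 0.92 and 0.89). A second *Pycard* probe set, at a mean of 3.93, lay among the dimmest 25% of genes (under 5.55) and is not read further.

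*Il1b* showed the widest host difference of the 8 genes in 67NR. In tumors labelled BPTF KD it was at 7.02, 8.0 and 9.53 in NSG mice, against 9.19, 10.62 and 11.79 in BALB/c mice, a 5.86-fold lower level in NSG mice (-2.55 ± 0.50, adjusted p = 0.00467 by limma) with 5 of 6 tumors below every BALB/c tumor. In controls it was at 7.55, 7.78 and 7.93 in NSG mice, against 9.33, 9.81 and 10.06 in BALB/c mice, 3.94-fold lower (-1.98 ± 0.19, adjusted p = 0.00186, and 0.113 by the methods' t-test). In 66cl4 BPTF KD tumors it was at 8.98, 9.48 and 10.37 in NSG mice, against 9.89, 10.73 and 10.92 in BALB/c mice (-0.94 ± 0.23, adjusted p = 0.0162). That call was lost in the fit of all 36 tumors (adjusted p = 0.15) and by the methods' t-test (0.0544). The 66cl4 controls did not share this, at 9.34, 9.72 and 10.02 in NSG mice and 9.27, 9.29 and 9.52 in BALB/c mice (0.33 ± 0.19, adjusted p = 0.267).

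By line, *Il1b* was lower in 67NR than in 66cl4 in NSG mice, which did not pass in BALB/c mice. In NSG mice 67NR was lower by -1.58 ± 0.37 in BPTF KD tumors (2.99-fold, adjusted p = 0.0037 by limma) and by -1.94 ± 0.19 in controls (3.84-fold, adjusted p = 3.67e-04). In BALB/c mice the difference was 0.03 ± 0.39 in BPTF KD tumors and 0.37 ± 0.19 in controls (adjusted p = 0.966 and 0.2), and the second passed without replicate 3 of 67NR (0.58, adjusted p = 0.041). BPTF KD and control tumors of NSG mice differed by 0.30 ± 0.46 in 67NR and -0.06 ± 0.27 in 66cl4 (adjusted p = 0.828 and 0.98). In BALB/c mice *Il1b* was at 9.89, 10.73 and 10.92 in 66cl4 BPTF KD tumors, against 9.27, 9.29 and 9.52 in controls (1.21 ± 0.21, 6 of 6 above every control), and 67NR differed by 0.87 ± 0.53 with 4 of 6 above and 1 of 6 below.

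*Il1a* was dim, at a mean of 4.61 and the 13.1 percentile of gene means, so its differences are small steps near the lower end of the array and a filter on dim genes removes it. It was lower in NSG mice in 67NR tumors labelled BPTF KD, at 3.81, 3.99 and 4.31 against 4.64, 5.32 and 6.20 in BALB/c mice (-1.32 ± 0.23, adjusted p = 0.0023 by limma). It was also lower in 66cl4 BPTF KD tumors, at 4.12, 4.31 and 4.51 against 4.50, 5.26 and 5.85 (-0.88 ± 0.18, adjusted p = 0.00655), and in 67NR controls, at 3.96, 4.10 and 4.25 against 4.60, 5.16 and 5.37 (-0.94 ± 0.19, adjusted p = 0.027). The last call was lost without any of 4 tumors (NSG replicates 1 and 3, BALB/c replicates 1 and 2; adjusted p = 0.0551 to 0.102), in the fit of all 36 tumors (0.0806) and by the methods' t-test (0.168). In 66cl4 controls 3 of 3 NSG tumors lay below every BALB/c tumor, without passing (-0.50 ± 0.25, adjusted p = 0.216). All NSG groups of *Il1a* had means from 3.94 to 4.32 and all BALB/c groups from 4.44 to 5.33.

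By line, *Il1a* was lower in 67NR in NSG BPTF KD tumors (-0.30 ± 0.10, adjusted p = 0.021 by limma, lost without replicate 4 of 66cl4 at 0.0525 and in the fit of all 36 tumors at 0.264), and differed by 0.16 ± 0.16 in NSG controls, 0.13 ± 0.28 in BALB/c BPTF KD tumors and 0.60 ± 0.26 in BALB/c controls, none of which passed (adjusted p = 0.478, 0.81 and 0.139; the last 0.0381 without replicate 3 of 66cl4). BPTF KD tumors were above controls by 0.38 ± 0.12 in 66cl4 in NSG mice, with 5 of 6 above every control and an adjusted p of 0.576, and by 0.76 ± 0.28 in 66cl4 in BALB/c mice, with 4 of 6 above. The 67NR differences were -0.09 ± 0.13 in NSG mice (adjusted p = 0.817) and 0.29 ± 0.33 in BALB/c mice.

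*Il1rn*, the receptor antagonist, was lower in 67NR than in 66cl4. In NSG BPTF KD tumors it was at 5.28, 5.73 and 5.96 in 67NR, against 6.92, 7.16 and 7.42 in 66cl4, 2.78-fold lower with 6 of 6 below (-1.47 ± 0.13, adjusted p = 6.40e-07 by limma). In NSG controls it was at 5.86, 6.06 and 6.37 in 67NR, against 6.64, 7.05 and 7.1 in 66cl4 (-0.83 ± 0.18, adjusted p = 0.00857, and 0.0582 by the methods' t-test), and in BALB/c controls at 5.90, 6.17 and 6.47 against 6.74, 6.96 and 7.22 (-0.79 ± 0.18, adjusted p = 0.0137, lost without replicate 2 of 67NR, in the fit of all 36 tumors and by the methods' t-test at 0.0516, 0.0737 and 0.0913). The BALB/c tumors labelled BPTF KD did not follow, at 6.16, 6.59 and 8.18 in 67NR, against 6.60, 6.94 and 7.36 in 66cl4 (-0.13 ± 0.31, adjusted p = 0.828). The 67NR tumor at 8.18 was replicate 3, the tumor with the highest skeletal muscle mean, whose part was not tested.

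The 2 other *Il1rn* probe sets kept the order of the lines in controls and in NSG BPTF KD tumors. They were lower in 67NR by -2.16 ± 0.22 and -0.80 ± 0.17 in NSG BPTF KD tumors (adjusted p = 3.23e-06 and 0.0023 over all probe sets) and by -1.77 ± 0.15 and -1.08 ± 0.16 in BALB/c controls (1.39e-04 and 0.00175). By host, *Il1rn* fell in NSG mice in 67NR tumors labelled BPTF KD, at 5.28, 5.73 and 5.96 against 6.16, 6.59 and 8.18 (-1.10 ± 0.30, adjusted p = 0.0262), which was lost without any of 4 tumors (NSG replicates 1 to 3, BALB/c replicate 4; adjusted p = 0.054 to 0.0618) and by the methods' t-test (0.0519), and was -0.82 without the muscle-rich replicate 3 (adjusted p = 0.0106). The other host contrasts of that probe set, the brightest at a mean of 6.61, ran from -0.08 to 0.25, with no call. A second probe set of nearly the same mean, 6.60, was higher in NSG mice in 66cl4 BPTF KD tumors (0.50 ± 0.14, adjusted p = 0.0324 over all probe sets) and stood at 0.51 ± 0.20 in 67NR controls (adjusted p = 0.143). BPTF KD and control tumors differed by -0.40 ± 0.16 in 67NR in NSG mice (adjusted p = 0.3), by 0.24 ± 0.14 in 66cl4 in NSG mice (adjusted p = 0.742), and in BALB/c mice by 0.61 ± 0.41 in 67NR and -0.05 ± 0.18 in 66cl4. The probe sets differed here. In BALB/c mice the second one gave 1.45 ± 0.45 in 67NR, with 6 of 6 tumors above every control, and -0.29 ± 0.16 in 66cl4, and the dimmest, at a mean of 5.45, gave 0.57 ± 0.33 in 67NR and -0.61 ± 0.13 in 66cl4, with 6 of 6 below every control.

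*Il18* was above 0 in all 4 contrasts of 67NR with 66cl4 and passed in 3. It was higher in 67NR in NSG BPTF KD tumors, at 10.17, 10.56 and 10.84 against 9.26, 9.72 and 10.03 in 66cl4 (1.76-fold, 0.82 ± 0.14, adjusted p = 3.07e-04 by limma, 6 of 6 above). It was higher in 67NR in BALB/c controls, at 9.76, 10.14 and 10.27 against 8.39, 8.58 and 9.07 (2.60-fold, 1.38 ± 0.21, adjusted p = 0.00171). The skeletal muscle mean of these controls, given above, also differed by line. NSG controls gave 0.68 ± 0.18, at 10.01, 10.25 and 10.60 against 9.43, 9.55 and 9.85 (adjusted p = 0.0213, lost without replicate 1 of 67NR or replicate 2 or 3 of 66cl4 at 0.0546 to 0.0792, in the fit of all 36 tumors at 0.0654 and by the methods' t-test at 0.0936). BALB/c BPTF KD tumors gave 0.60 ± 0.24 (adjusted p = 0.126, and 0.0197 in the fit of all 36 tumors). The order of group means thus placed all 4 groups of 67NR, from 10.06 to 10.52, above all 4 groups of 66cl4, from 8.68 to 9.70, although neighbors overlapped except for the lowest pair, 66cl4 BPTF KD and control tumors of BALB/c mice.

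That pair was at 9.17, 9.56 and 9.69 in BPTF KD tumors and 8.39, 8.58 and 9.07 in controls (0.78 ± 0.17, 6 of 6 above). The other BPTF KD differences of *Il18* were 0.23 ± 0.16 in 67NR in NSG mice, 0.09 ± 0.17 in 66cl4 in NSG mice (adjusted p = 0.577 and 0.949 by limma) and 0.00 ± 0.34 in 67NR in BALB/c mice. By host the differences of *Il18* were above 0 in all 4 contrasts, by 0.23 to 0.93, as were those of *Ifi204*, by 0.05 to 0.54, and none of them passed. The largest was in 66cl4 controls, at 9.43, 9.55 and 9.85 in NSG mice against 8.39, 8.58 and 9.07 in BALB/c mice (0.93 ± 0.20, adjusted p = 0.0561, 3 of 3 above), and it passed without replicate 1 of the BALB/c controls (1.12, adjusted p = 0.0207) and with the dimmest genes left out (0.0479). In 67NR tumors labelled BPTF KD the contrast was 0.46 ± 0.24 (adjusted p = 0.236, and 0.0259 without replicate 1 of the BALB/c tumors).

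*Ifi204* had group means from 7.98 to 9.30 and did not pass in any contrast tested, although other settings gave it calls by line. In 67NR tumors of NSG mice it was at 8.81, 9.12 and 9.31 in tumors labelled BPTF KD, against 8.26, 8.50 and 8.78 in controls (0.59 ± 0.15, adjusted p = 0.086 by limma), the 1 of 8 genes without overlap there (6.86% of all genes). It passed without replicate 5 of the tumors labelled BPTF KD (0.65, adjusted p = 0.0246). In 67NR tumors of BALB/c mice it stood at 7.82, 8.62 and 10.15 in tumors labelled BPTF KD, against 7.56, 7.70 and 8.67 in controls (0.97 ± 0.55). Replicates 1 and 3 of the tumors labelled BPTF KD, at 10.15 and 10.13, stood apart from the other 4, which ended at 8.79. In 66cl4 the BPTF KD difference was 0.50 ± 0.16 in BALB/c mice, with 4 of 6 above every control, and 0.05 ± 0.18 in NSG mice (adjusted p = 0.973).

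By line *Ifi204* was lower in 67NR in NSG controls by -0.73 ± 0.26 (adjusted p = 0.0596, passing without replicate 3 of 66cl4 at 0.0286, with the dimmest genes left out at 0.0475 and with array medians subtracted at 0.0489) and in BALB/c controls by -0.77 ± 0.31 (adjusted p = 0.105, passing without replicate 1 of 67NR at 0.0202). A probe set shared by *Ifi204* with *Mndal*, *Ifi211* and *Ifi205*, whose sequences are close, had group means from 9.39 to 10.58 and was lowest in 67NR controls of BALB/c mice, as was *Ifi204*. The patterns most like that of *Ifi204* were *Col14a1* (r = 0.85), the interferon-induced *Ifit1* (r = 0.84) and *Insl6* (r = 0.82), and *Ifit1* stayed at 0.86 with group means subtracted.

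**Figure D3:**
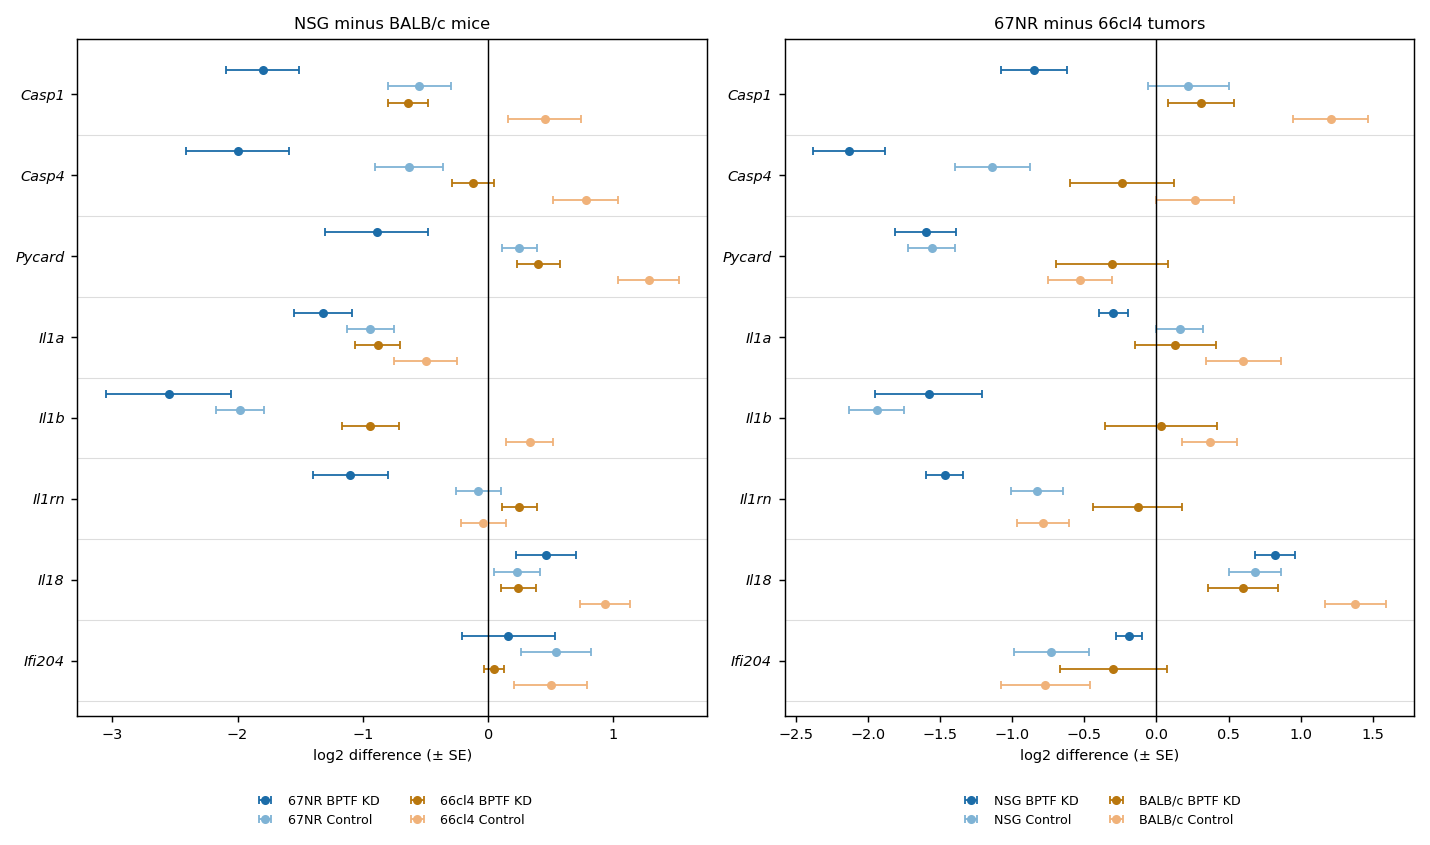
Left, NSG minus BALB/c mice, and right, 67NR minus 66cl4, for each gene (log2, point ± SE from limma, 6 against 6 BPTF KD tumors or 3 against 3 controls). *Il1b* in 67NR fell by 2.55 and 1.98 in NSG mice, while *Il18* was the gene to the right of 0 in all 8 contrasts.

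Other members of the pathway were read from lists in the same contrasts. Among 8 measured receptors and decoys of the interleukin-1 family, *Il18r1*, the interleukin-18 receptor chain carried by NK and T cells, was lower in NSG mice in all 4 host contrasts, with differences of -4.56 ± 0.50 in 67NR tumors labelled BPTF KD, -2.29 ± 0.30 in 67NR controls, -2.61 ± 0.16 in 66cl4 BPTF KD tumors and -1.94 ± 0.23 in 66cl4 controls (adjusted p = 1.62e-04, 0.00596, 1.63e-07 and 0.02 by limma). *Il18bp*, a soluble binder of interleukin-18 that interferon gamma induces, was lower in 3 of them, by -3.02 ± 0.54, -1.13 ± 0.17 and -1.77 ± 0.23 (adjusted p = 0.00277, 0.0104 and 1.89e-04), and stood at -0.45 ± 0.16 in 66cl4 controls (adjusted p = 0.114). *Il18* itself had not fallen in NSG mice in any of these contrasts. The NK cell marker mean moved the same way as these 2 genes, at 4.54 to 5.20 in NSG tumors and 6.32 to 9.59 in BALB/c tumors. So did the mean of T cell markers (12 of 13 measured), at 5.11 to 5.56 in NSG tumors and 5.94 to 9.51 in BALB/c tumors. The part of either cell type was not tested.

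The receptors of interleukin-1 differed by line. *Il1rap*, the accessory chain of the receptor, was higher in 67NR in all 4 contrasts, by 2.17 ± 0.14 in NSG BPTF KD tumors, 2.01 ± 0.19 in NSG controls, 1.60 ± 0.26 in BALB/c BPTF KD tumors and 2.65 ± 0.17 in BALB/c controls (adjusted p = 3.23e-08, 3.16e-04, 0.00181 and 2.05e-05 by limma). *Il1r1*, the signaling receptor, was higher by 0.95 to 1.40. The decoy receptor *Il1r2* was lower in 67NR in NSG mice (-1.24 ± 0.15 and -1.30 ± 0.22, adjusted p = 1.69e-05 and 0.00327), as was *Il18rap* (-1.90 ± 0.11 and -1.36 ± 0.21). Of the 8 receptors and decoys, 2 rose and 3 fell in 67NR in each NSG contrast, with a list median of -0.22 and -0.11, against -0.06 and -0.02 over all genes. In the same contrasts 42.5% (BPTF KD tumors) and 36.2% (controls) of all genes differed in either direction.

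Among 13 measured sensors and adaptors of inflammasomes, 1 rose and 4 fell in NSG mice in 67NR tumors labelled BPTF KD (15.8% of all genes differed), 0 rose and 2 fell in 67NR controls (7.58%), and 0 rose and 3 fell in 66cl4 BPTF KD tumors (11.1%). In 66cl4 controls (2.53%) no sensor passed, with *Nlrp3* nearest (-0.47 ± 0.15, adjusted p = 0.0989). *Nlrp3*, which senses membrane damage, fell in the first 3 (-0.88 ± 0.12, -0.74 ± 0.10 and -0.61 ± 0.12, adjusted p = 6.53e-04, 0.0068 and 0.00355 by limma), and so did *Mefv*, which encodes pyrin (-1.78 ± 0.36, -0.90 ± 0.16 and -0.77 ± 0.13). By line, 6 of 13 fell in 67NR in NSG BPTF KD tumors (42.5% of all genes differed in either direction) and 5 of 13 in NSG controls (36.2%), with *Naip2*, a receptor of bacterial proteins (-1.30 ± 0.14 and -1.16 ± 0.13), and *Pstpip1*, a partner of pyrin (-1.55 ± 0.17 and -1.49 ± 0.16), in both. The list medians ran from -0.39 to -0.04 in the host and line contrasts, against -0.06 to 0.02 over all genes.

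Of the other 13 measured caspase and pyroptosis genes, 4 fell in NSG mice in each 67NR contrast (15.8% of all genes differed in tumors labelled BPTF KD and 7.58% in controls), among them *Ninj1*, needed for membrane rupture (-1.55 ± 0.26 and -0.61 ± 0.14), and *Ripk3*, a kinase of necroptosis (-1.14 ± 0.21 and -0.71 ± 0.17), with adjusted p from 0.00195 to 0.0427 by limma. *Gsdme*, a pore-forming gasdermin, was higher in NSG mice in 66cl4, by 0.84 ± 0.10 in BPTF KD tumors and 0.89 ± 0.14 in controls (adjusted p = 1.28e-04 and 0.0386). Between the 2 measured further ligands of the family, *Il33* was the 1 that changed with the BPTF KD label in 67NR in NSG mice (1.14% of all genes did). It was 3.72-fold lower, at 8.28 in tumors labelled BPTF KD and 10.18 in controls, with 6 of 6 below every control (-1.90 ± 0.36, adjusted p = 0.0346). *Il33*, an alarmin of stromal and epithelial cells, was also higher in 67NR than in 66cl4 in NSG controls (2.03 ± 0.43, adjusted p = 0.00847).

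Of 21 known targets of interleukin-1 measured, 9 fell in NSG mice in 67NR tumors labelled BPTF KD, 5 in 67NR controls, 4 in 66cl4 BPTF KD tumors (where 2 rose) and 1 in 66cl4 controls (where 1 rose), with list medians of -0.61, -0.35, -0.01 and 0.17. Shares of all genes that differed were 15.8%, 7.58%, 11.1% and 2.53% in that order. *Csf2*, the growth factor of granulocytes and macrophages, fell in the first 3 (-1.52 ± 0.17, -0.94 ± 0.17 and -0.75 ± 0.14, adjusted p = 1.73e-04, 0.0197 and 0.00346 by limma). By line, 3 rose and 9 fell in 67NR in NSG BPTF KD tumors (42.5% of all genes differed). *Saa3*, an acute-phase gene, was 13.5-fold lower in 67NR (-3.76 ± 0.25, adjusted p = 6.80e-08), and the neutrophil chemokines *Cxcl2* (-2.68 ± 0.28) and *Cxcl5* (-2.33 ± 0.24) were lower as well, with 6 of 6 tumors below every 66cl4 tumor for each. The BPTF KD effect on *Csf2* in NSG mice was lower in 67NR than in 66cl4 (-0.91 ± 0.19, adjusted p = 0.0284), the 1 of 21 that passed that test of the difference (0.96% of all genes did).

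Interferon gamma response genes were lower in NSG mice. All 16 measured fell in NSG mice in 67NR tumors labelled BPTF KD (15.8% of all genes differed), 10 in 67NR controls (7.58%), 14 in 66cl4 BPTF KD tumors (11.1%) and 3 in 66cl4 controls (2.53%), with medians of -2.56, -0.76, -1.57 and -0.61. *Irf1*, a transcription factor of this response, was higher in tumors labelled BPTF KD of 67NR in NSG mice, with 6 of 6 above every control (0.68 ± 0.12, adjusted p = 0.0278 by limma). In that comparison 1.14% of all genes differed and 6.86% were without overlap. The mean of the 16 genes there was 7.86 in tumors labelled BPTF KD and 7.82 in controls. Over all groups this mean was 7.32 to 8.48 in NSG tumors and 8.78 to 11.95 in BALB/c tumors. *Il1b* tracked it within each host, with r = 0.71 in 18 NSG tumors and 0.76 in 18 BALB/c tumors (rho 0.77 and 0.75). Those tumors mix lines and labels, and r was 0.51 over 36 tumors once group means were subtracted. *Il1a* was most like *Cxcl11*, *Fasl* and *Klrc1* (r = 0.87, 0.86 and 0.85), with r of 0.42, 0.51 and 0.42 once group means were subtracted. These correlations are descriptions over tumors that share hosts and arrays.

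*Il18* was lower where macrophage markers were higher. The macrophage mean (14 of 15 genes measured) was 10.27 to 10.89 in NSG and 10.58 to 11.65 in BALB/c tumors of 67NR, and 11.34 to 11.72 in 66cl4. *Il18* had r = -0.71 in 18 67NR tumors and -0.52 in 18 66cl4 tumors (rho -0.78 and -0.36), while *Il1rn* had 0.79 and -0.17 (rho 0.63 and -0.12). *Il1b* was most like the myeloid genes *Lst1*, *Clec7a* and *Aif1* (r = 0.92, 0.92 and 0.90), and *Il18* like *Med30*, *B9d1* and *Ebna1bp2* (r = 0.95, 0.93 and 0.93). Neutrophil markers (12 of 14 measured) had means of 5.33 to 6.16 in 67NR and 5.92 to 6.56 in 66cl4. Single markers differed. *Cd177* was at 3.39 to 4.20 in NSG and 3.52 to 4.18 in BALB/c tumors, and *Mpo* at 4.17 to 4.86 and 4.43 to 4.92. *S100a8* spanned 6.39 to 11.59 and 7.79 to 10.57, and *S100a9* 6.13 to 11.92 and 6.38 to 10.58. *Casp4* went with the neutrophil mean in 67NR (r = 0.89, rho 0.88) more than in 66cl4 (0.43, rho 0.16), a difference that was not tested. Which markers carried this was not tested. The part of these cells in the line contrasts of the 8 genes was not tested.

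**Figure D4:**
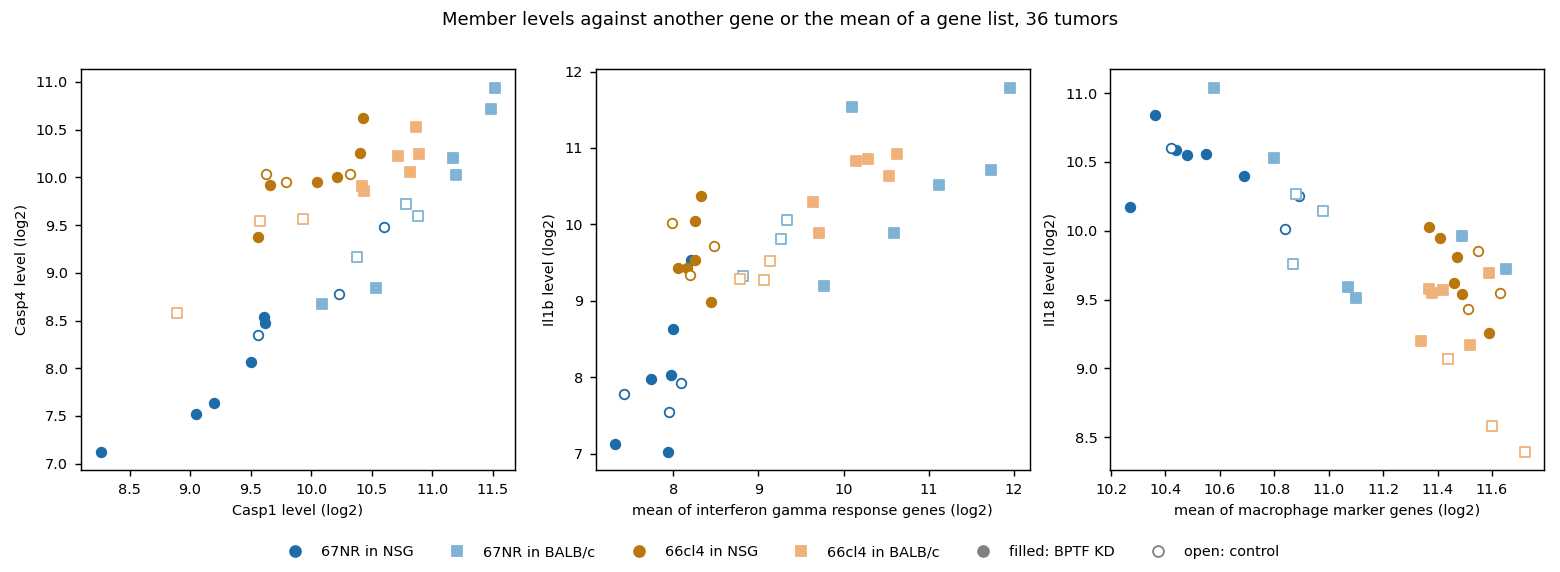
Each point is 1 of 36 tumors, by line and host (color and shape) and label (filled, BPTF KD; open, control), with log2 levels or means of log2 levels on both axes. *Casp4* rose with *Casp1* along a separate line in 67NR (r = 0.97) and 66cl4 (r = 0.80), *Il1b* with interferon gamma response genes, and *Il18* fell as the macrophage mean rose.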

How the data were processed

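The deposited values are log2 expression levels of 36 Affymetrix arrays, made by the authors with RMA per the submitters' processing notes, with array medians of 7.03 to 7.21. The number of tumors, not a count, limits their precision. Of 22690 probe sets, 20393 had 1 gene symbol, 691 several and 1606 none. Symbols were updated through Entrez identifiers to RefSeq GRCm38.p6, and the probe set with the highest mean stood for each of 12394 genes. Groups came from the labels. Each comparison was fitted alone with limma 3.58.1 (R 4.3.3) and adjusted by Benjamini-Hochberg over all genes at 0.05, two-sided. The 8 genes and all lists were chosen with earlier results of these data known. All 8 genes are named, with the 3 genes most correlated with each but *Il1rn*. The list genes named are a selection from those of lowest adjusted p in each comparison (at most 4 a list). Lists of interleukin-1 receptor signaling genes and of other p200 family genes were also read and are not described. In data simulated for each tested comparison over all 12394 genes, limma recovered from 51% (BPTF KD against control, 67NR in BALB/c mice) to 94% (NSG against BALB/c mice, 66cl4 BPTF KD) of genes changed by 1 on the log2 scale. The share was 68% for the test of the difference between lines in NSG mice and 62% for 66cl4 controls by host. Of genes changed by 2, 83% to 100% were recovered. The same number of changed genes was planted in each simulation, with independent noise. The measured comparisons called from 0% to 42.5% of all genes. The adjusted threshold depends on how many genes change, so these shares do not carry over to the measured comparisons. Other settings tried were 1 joint fit of the 36 tumors, a t-test (called the methods' t-test), a filter of the dimmest 25% of genes, quantile normalization, subtracted array medians, the mean of all probe sets, a replicate block, each tumor left out and, added after seeing the data, other probe sets. The study names that t-test for comparing groups in general and refers to earlier reports for its array statistics. Here it was adjusted over all genes. Promoters are RefSeq sequences of GRCm38.p6, found for 7 of 8 genes.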

Additional observations from a re-analysis of the deposited data

Results flagged for a closer look

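The dim second probe set of *Pycard* had 1 tumor apart from its group. In 66cl4 BPTF KD tumors of NSG mice, replicate 2 was at 4.35 and the other 5 tumors were at 3.95 to 4.10, a gap of 0.63 of the whole range. Chance gives such a gap in about 1 of 20 groups, and 44 groups of 6 tumors were looked at. The level lies among the dimmest 25% of genes, and the brightest *Pycard* probe set did not show the gap.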

How the results depend on the processing

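Counts of called genes here are over all 8, *Casp1* included. They moved most for 66cl4 BPTF KD against control tumors in BALB/c mice, which was 1 and became 0 in the fit of all 36 tumors, with the methods' t-test, with quantile normalization, with the mean of all probe sets and with the replicate block, 2 without the dimmest genes, and 0 to 6 with 1 tumor left out (6 without control replicate 1, 4 without BPTF KD replicate 6). The genes were listed with the differences of that comparison known, so nothing is read from its counts in any setting. The fit of all 36 tumors gave 1 in 67NR controls, 1 in 66cl4 BPTF KD tumors and 0 in 66cl4 controls by host, and 1 for BPTF KD tumors of BALB/c mice by line. The t-test gave 0 in both control groups by host, and 1 (BALB/c) and 2 (NSG) in controls by line. Without the dimmest genes, 67NR controls gave 1 and 66cl4 controls 2 by host. With 1 tumor left out, counts ran from 0 to 1 for 67NR BPTF KD in NSG mice, 1 to 2 for 67NR controls and 0 to 2 for 66cl4 controls by host.

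The replicate numbers did not pair the tumors, since no comparison had every correlation of same-numbered tumors above 0.1 (from -0.45 to 0.70). With the replicate block, 67NR BPTF KD in NSG mice gave 3 (*Casp1* -0.69, *Casp4* -0.79 and *Il1rn* -0.58), 66cl4 controls by host gave 3 (*Casp4* and *Il18* gained, adjusted p = 0.0463 and 0.0141), *Ifi204* passed by line in controls of NSG mice (-0.73, adjusted p = 0.0199) and of BALB/c mice (-0.77, adjusted p = 0.0116), and the BPTF KD differences in NSG mice turned to 0.18 for *Pycard* in 67NR, 0.06 for *Pycard* and 0.29 for *Il1b* in 66cl4. The mean of all probe sets turned *Il1rn* in 67NR controls by host to 0.09 and the *Pycard* difference between lines in NSG mice to 0.18, and quantile normalization turned *Il1rn* in 66cl4 controls by host to 0.01. Other probe sets turned *Pycard* to 0.09 for 67NR BPTF KD in NSG mice, -0.15 in 67NR controls by host, 0.03 in BALB/c BPTF KD tumors by line and 0.39 for the difference between lines, and *Il1rn* to 0.51 in 67NR controls by host and 0.09 in BALB/c BPTF KD tumors by line. The causes were not tested.

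Leaving out 1 tumor crossed 0 for values near it. For BPTF KD in NSG mice these were *Pycard* in 67NR (-0.24 to 0.03) and, in 66cl4, *Casp1* (-0.00 to 0.34), *Casp4* (-0.11 to 0.14), *Pycard* (-0.25 to 0.04), *Il1b* (-0.24 to 0.10) and *Ifi204* (-0.14 to 0.34), with the *Pycard* difference between lines at -0.18 to 0.13. By host they were *Ifi204* (-0.06 to 0.41) in 67NR BPTF KD tumors, *Il1rn* in 67NR controls (-0.22 to 0.06) and 66cl4 controls (-0.16 to 0.10), and *Casp4* in 66cl4 BPTF KD tumors (-0.23 to 0.01). By line they were *Casp4* (-0.45 to 0.01), *Il1a* (-0.04 to 0.27) and *Il1b* (-0.20 to 0.32) in BALB/c BPTF KD tumors, *Casp4* in BALB/c controls (-0.05 to 0.44) and *Casp1* in NSG controls (-0.02 to 0.50). *Il1a*, among the dimmest genes, could not be read when dim genes were left out.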
